A study of Mus musculus with 24 samples.

Results

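The levels of 10 genes that mark the subfields of the mouse hippocampus were followed across 24 hippocampi. The rule that lists them as known markers uses no value measured in these libraries, but the choice was made with earlier results of these data known. They were taken out of 36605 genes counted. For CA1 there were 3 genes (Wfs1, Fibcd1 and Pou3f1), for CA3 and CA2 there were 2 (Iyd and Amigo2), and for the dentate gyrus there were 5 (Prox1, C1ql2, Dsp, Tdo2 and Calb1). All 10 passed the filter on low counts in each comparison. In the GRCm38 annotation the genes span, with their strand, Wfs1 chr5:36966104-36989205 (minus), Fibcd1 chr2:31813290-31846005 (minus), Pou3f1 chr4:124656807-124660655 (plus), Iyd chr10:3540240-3554877 (plus), Amigo2 chr15:97244125-97247287 (minus), Prox1 chr1:190118035-190170714 (minus), C1ql2 chr1:120340582-120343174 (plus), Dsp chr13:38151294-38198577 (plus), Tdo2 chr3:81957090-81976202 (minus) and Calb1 chr4:15881264-15908064 (plus).

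The hippocampus passes signals along a chain of subfields. Granule cells of the dentate gyrus send mossy fibres to the pyramidal neurons of CA3, which project to those of CA1, and CA2 lies between the last pair. Each subfield holds a principal neuron with its own set of genes, so in RNA from a whole dissected hippocampus the levels of such genes depend on how much of each subfield the sample held as well as on how strongly its neurons used the gene. Fewer cells of a type and less RNA per cell cannot be told apart in these libraries.

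Adult mice of 4 genotypes were compared, with 3 females and 3 males of each. Egr1wtNesCre- mice were wild type, Egr1fNesCre- mice carried the floxed Egr1 allele without Cre, Egr1wtNesCre+ mice carried the Nestin-Cre transgene with intact Egr1, and Egr1fNesCre+ mice (Egr1cKO) carried both, which removes Egr1, a zinc-finger transcription factor induced by neuronal activity. The Nestin promoter drives Cre in the progenitors of neurons and glia throughout the nervous system, so the deletion is not limited to the hippocampus or to any subfield. In the labels, mouse numbers of the Egr1wt and the Egr1f animals fall into separate runs, so the floxed allele and the run of animals cannot be told apart.

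Libraries held from 18025168 to 34955004 counted reads, with a median of 22743950.5. Egr1 lay between 4.85 and 10.2 CPM (counts scaled to a common library size, with library totals adjusted by trimmed means) in the 6 Egr1cKO mice and between 47.6 and 149.0 CPM in the other 18, with no overlap, a log2 difference of -3.59 ± 0.23 (SE, edgeR, adjusted p = 1.19e-11). The labels call the cell type endocrine. Of the 6 pituitary genes listed, Gh, Prl, Cga and Pou1f1 had medians of at most 0.0393 CPM over the 24 mice, whereas Pomc had a median of 0.802 CPM and Tshb of 1.12 CPM, and Slc17a7, which loads glutamate into vesicles of excitatory neurons, had at least 1220 CPM.

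In 2 mice the markers stood apart from those of the other 22, namely female Egr1wtNesCre+ replicate 1 and male Egr1fNesCre+ replicate 3. In both, 6 of the 10 markers lay below the lowest of the other 22 mice (Fibcd1, Iyd, Amigo2, Prox1, C1ql2 and Dsp), and in the second Tdo2 did so too. The median marker was at 0.590 times the median of the other 22 in the first mouse and at 0.596 times in the second. Genes of other lists, of the hippocampus and of other tissue, moved with them. Of further listed markers, 3 of 6 for CA3, 3 of 8 for granule cells and 2 of 6 for CA1 were below the others' range in both mice. Of 4 genes of immature granule cells, Dcx was above it in both (43.96 and 46.2 CPM against at most 32.46) and Neurod1 below it. The thalamic gene Lhx9 was also below it in both. Drd1, a dopamine receptor of striatal neurons, reached 6.23 and 9.82 CPM against at most 4.97 in the rest, whereas the striatal genes Rgs9 and Adora2a lay inside the range of the rest in both mice. Cux2, a factor of upper cortical layers, reached 67.8 and 54.3 CPM against at most 38.7. Of the 4 neocortical genes 2 were above the others' range in both mice. The first mouse also had 1905 CPM of Ttr, the chief transcript of the choroid plexus, against 6.34 to 1029 CPM in the other 22. In the second mouse 2 of the 5 listed choroid plexus genes were below the others' range. The part of tissue outside the hippocampus in the low markers was not tested, and results that rest on the 2 mice are given with and without them.

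**Figure D1:**
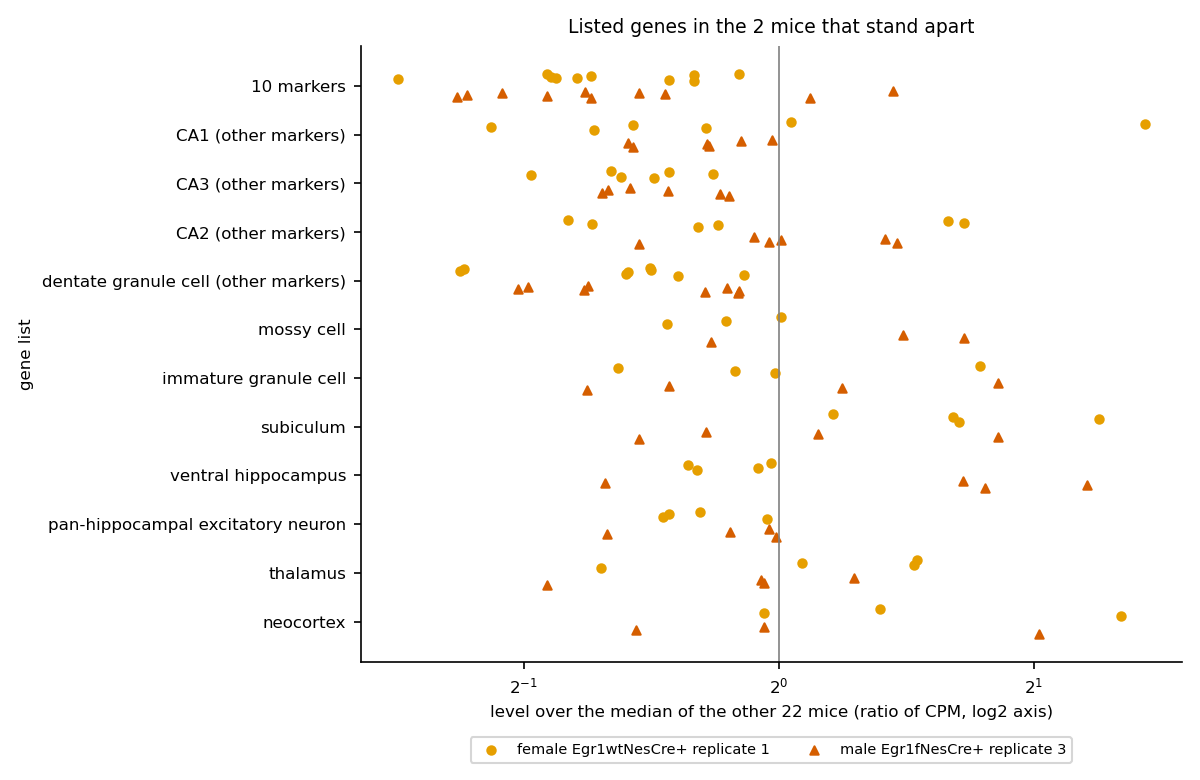
Level of each listed gene with a median of at least 1 CPM in the 2 mice that stand apart, divided by its median in the other 22 mice (horizontal log2 axis), by gene list, with choroid plexus, striatum, hypothalamus and pituitary genes not shown. Markers of CA3 and of dentate granule cells lie to the left of 1, and the neocortical gene Cux2 lies to the right, at 2.53 and 2.025 times that median. The other neocortical genes shown differ from it, with Fezf2 at 0.959 and 0.679 and Rorb at 1.315 and 0.9615.

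Promoter sequence is shown for the 4 genes whose 250 bases before the start overlap no annotated exon, since Prox1, C1ql2, Fibcd1 and Amigo2 all fell in the same 2 mice. RefSeq windows (GRCm38.p6) were matched for 8 of the 10 genes. The searched motifs were the EGR1 sites GCGTGGGCG and GCGGGGGCG, the GC box GGGCGG and the E-box CAGATG, each on both strands, and an EGR1 site and a GC box can share bases. Capitals mark the GC box and the E-box, and lines read 5′ to 3′ in the direction of the gene.
Prox1, chr1:190170828-190171077, minus strand: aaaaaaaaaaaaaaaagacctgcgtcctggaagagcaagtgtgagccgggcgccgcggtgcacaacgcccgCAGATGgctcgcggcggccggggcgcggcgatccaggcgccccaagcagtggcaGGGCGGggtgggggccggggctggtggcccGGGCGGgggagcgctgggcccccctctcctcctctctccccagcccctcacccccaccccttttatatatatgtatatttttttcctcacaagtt
C1ql2, chr1:120340332-120340581, plus strand: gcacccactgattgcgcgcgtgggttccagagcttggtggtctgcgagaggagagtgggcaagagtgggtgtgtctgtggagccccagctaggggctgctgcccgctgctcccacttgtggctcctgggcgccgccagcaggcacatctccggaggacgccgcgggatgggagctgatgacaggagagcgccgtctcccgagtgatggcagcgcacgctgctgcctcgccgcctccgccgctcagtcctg
Fibcd1, chr2:31846006-31846255, minus strand: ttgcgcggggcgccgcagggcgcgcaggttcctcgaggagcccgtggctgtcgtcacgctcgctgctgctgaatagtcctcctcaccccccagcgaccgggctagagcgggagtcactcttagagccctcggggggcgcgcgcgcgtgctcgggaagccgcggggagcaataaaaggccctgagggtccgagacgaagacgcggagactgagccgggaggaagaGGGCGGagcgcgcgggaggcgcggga
Amigo2, chr15:97247288-97247537, minus strand: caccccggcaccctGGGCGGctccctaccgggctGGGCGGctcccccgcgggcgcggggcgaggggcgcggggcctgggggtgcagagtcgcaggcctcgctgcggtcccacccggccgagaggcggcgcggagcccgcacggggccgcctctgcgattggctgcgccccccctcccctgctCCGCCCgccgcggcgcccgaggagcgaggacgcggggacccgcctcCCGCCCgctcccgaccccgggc

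Across whole windows of 300 bases, an EGR1 site was found in 0 of the 9 windows of these 8 genes, against 3.47% of all 32851 windows. A GC box was found in 7 of the 9, against 35.7% of all windows, and a CAGATG E-box in 3 of the 9 (Prox1, Wfs1 and Iyd), against 17.2%. The lack of a match says only that these letters are not in the window.

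The markers differed widely in level. Per length, on the RPKM scale over 24 mice, C1ql2 had the highest mean level at 48.3 ± 10.8 (SD, n = 24), followed by Fibcd1 at 37.4 ± 6.34 and Wfs1 at 37.4 ± 6.23, which could not be put in order, Fibcd1 being the higher in 14 of 24 mice. Calb1 (29.0), Pou3f1 (22.02), Prox1 (15.7), Amigo2 (8.88), Dsp (7.19), Iyd (3.18) and Tdo2 (1.75) followed, and from Prox1 on the next gene was lower in 19 to 24 of the 24 mice. Because the libraries do not mark strand, reads of Pou3f1, Amigo2, Prox1 and Dsp cannot be told apart from those of the antisense genes that overlap their exons (Gm2164, Pced1b, Prox1os and Gm10129).

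The coefficient of variation ran from 11.5% for Calb1 to 31.0% for Dsp, beside a median of 17.7% over all genes kept, so the markers lay on both sides of that median. Over the other 22 mice the range was 9.35% (Amigo2) to 24.4% (Dsp), beside a median of 16.9%. Of the variance in Wfs1 36.4% lay between the 4 genotypes, and in Fibcd1 2.34% did, which are descriptions with no test.

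**Figure D2:**
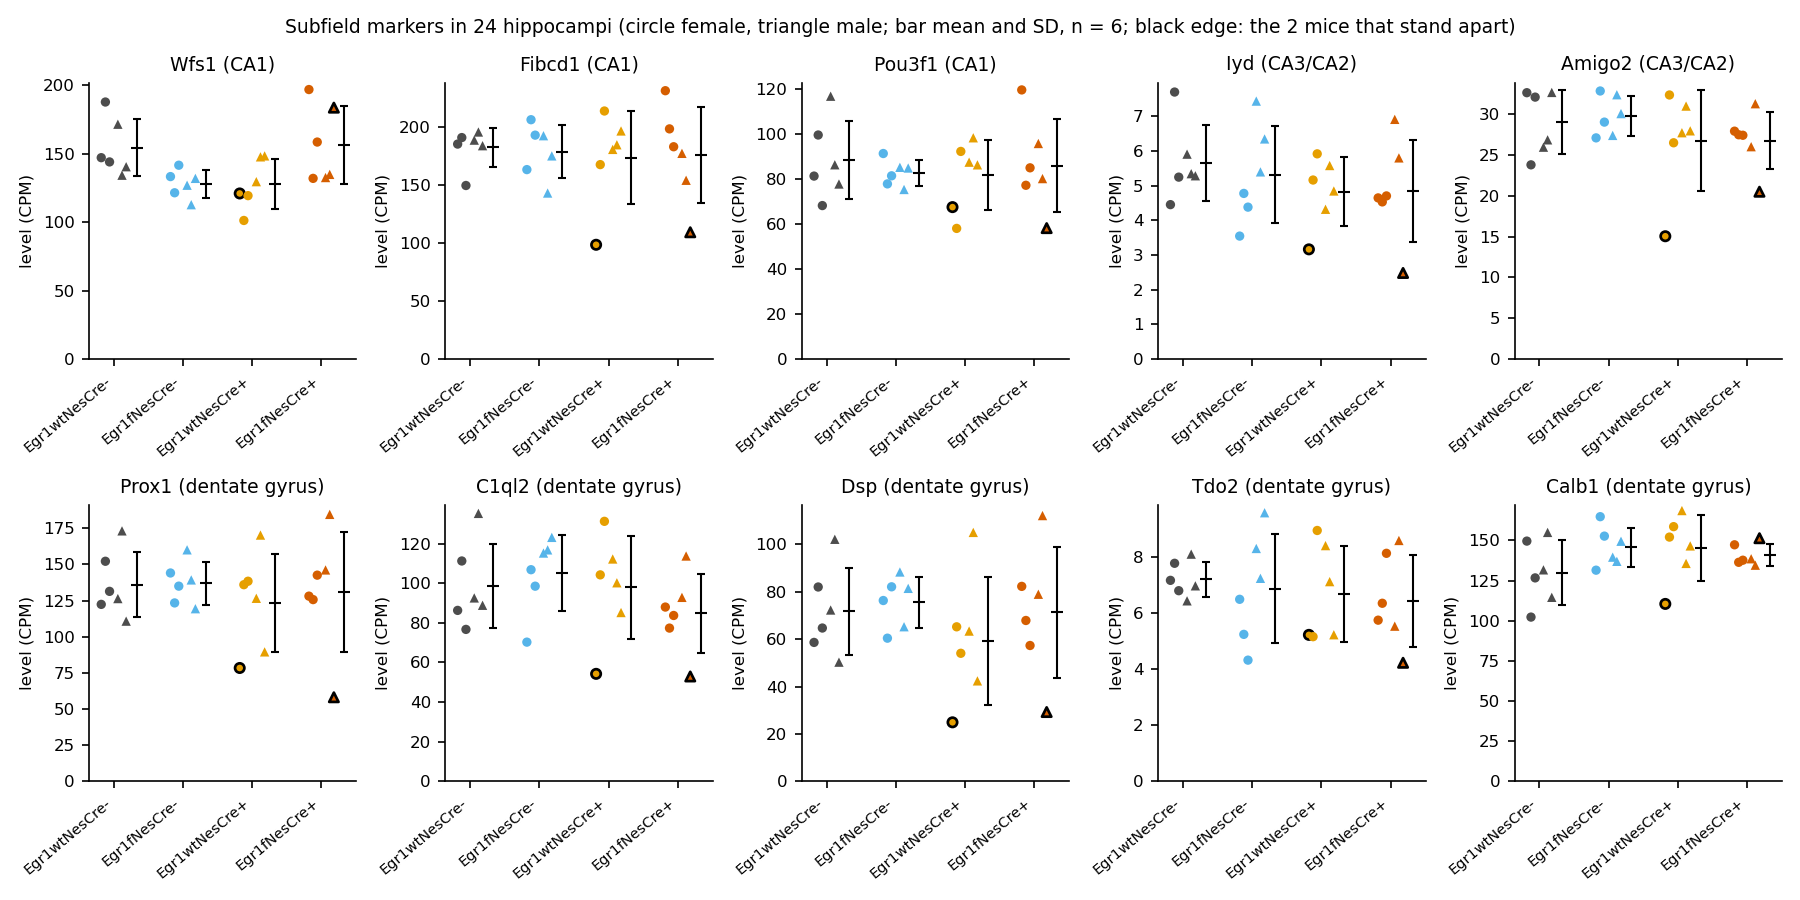
CPM of each of the 10 markers in each mouse (vertical axis), by genotype (horizontal axis), with circles for females and triangles for males and the mean and SD of the 6 mice beside them. The 2 mice that stand apart are edged in black and are the lowest 2 for Fibcd1, Iyd, Amigo2, Prox1, C1ql2 and Dsp.

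The first question was whether loss of Egr1 shifted the markers of any subfield. None of the 10 was called (fold change of at least 1.2 and adjusted p of at most 0.05, edgeR's quasi-likelihood test with Benjamini-Hochberg adjustment over all genes) between Egr1cKO and the 18 other mice, where 0.00543% of 18433 genes were called and the 1 called gene was Egr1. The background itself moved with the method, to 0.115% (42 genes) with DESeq2 and 1.18% (218 genes) over the other 22 mice, with 0 of the 10 markers called in either. Log2 differences of the 10 ran from -0.24 (C1ql2) to 0.20 (Wfs1) with a median of -0.01, and the median over all genes was also -0.01. At an unadjusted p under 0.05, 1 of the 10 passed (Wfs1), beside 15.1% of all genes.

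Against Egr1fNesCre- mice, which share the floxed allele, 0 of the 10 were called beside 0.0232% of 17265 genes, and against Egr1wtNesCre+ mice, which share Cre, 0 of the 10 beside 0.00585% of 17080. These comparisons share the Egr1cKO mice. In the first the log2 differences ran from -0.30 (C1ql2) to 0.29 (Wfs1), and in the second from -0.21 (C1ql2) to 0.30 (Wfs1). In each, 1 of the 10, Wfs1, had an unadjusted p under 0.05, beside 16.2% and 12.3% of all genes. The lowest adjusted p of the 10 was 0.255 in the first and 0.358 in the second. Over the other 22 mice 0 of the 10 were called, with lowest adjusted p of 0.142 and 0.276, beside 0.0287% of 17420 and 0.00587% of 17047 genes.

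**Figure D3:**
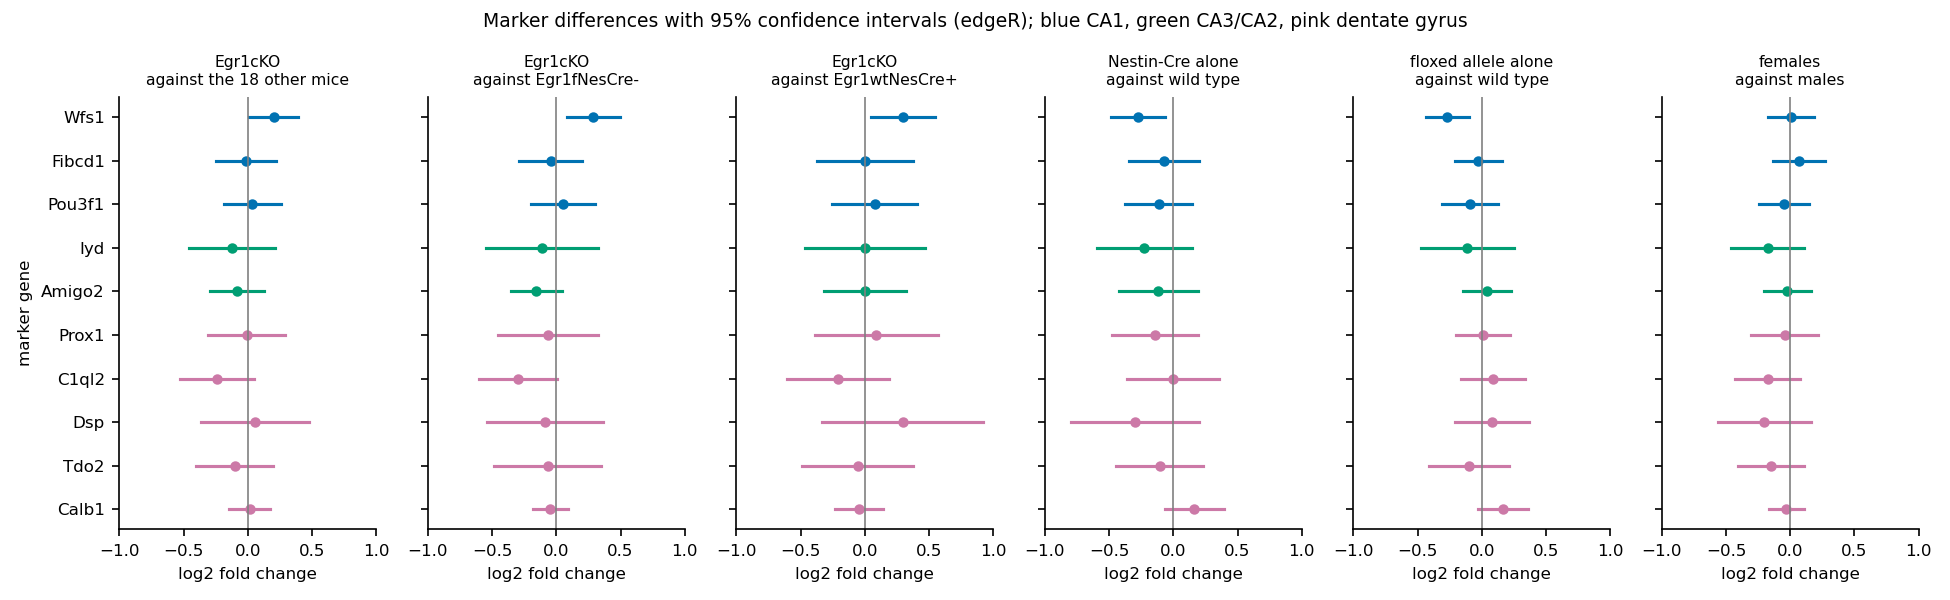
Log2 fold change (horizontal axis) of the 10 markers in 6 comparisons, with 95% confidence intervals from edgeR. The intervals of Wfs1 lie above 0 in the 3 Egr1cKO comparisons and below 0 for Nestin-Cre alone and the floxed allele alone, before adjustment over all genes.

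Wfs1, the wolframin of the endoplasmic reticulum, had the largest share of its variance between genotypes. In CPM its lowest, median and highest values were 134.2, 145.5 and 187.6 in Egr1wtNesCre- mice, 112.7, 129.4 and 141.5 in Egr1fNesCre-, 101.2, 125.2 and 148.3 in Egr1wtNesCre+, and 131.9, 146.6 and 196.7 in Egr1cKO mice. The wild-type and Egr1cKO mice had the higher medians, and each of the 4 groups overlapped the others. With Nestin-Cre alone Wfs1 was at -0.27 ± 0.10 (log2, SE) against wild type, and with the floxed allele alone at -0.27 ± 0.08, neither of them called (adjusted p = 0.754 and 0.515). These comparisons share the wild-type mice. Calls over all genes were 0% of 17167 and 0% of 17393, and 0 of the 10 were called in either. At an unadjusted p under 0.05, 1 of the 10 (Wfs1) passed in each, beside 6.05% of all genes (1038) for Nestin-Cre and 9.68% (1683) for the floxed allele. DESeq2 called 20 and 2 genes.

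With both factors in the model, the floxP by Nestin-Cre interaction of Wfs1 was 0.56 on the log2 scale (95% confidence interval 0.25 to 0.87, adjusted p = 0.159), so the combined genotype was higher than the single ones would add up to, without passing the test. For the interaction 0 of the 10 were called beside 0.00507% of 19742 genes, and 1 of the 10 had an unadjusted p under 0.05, beside 18.4%. DESeq2 placed the same Wfs1 term at 0.57 (adjusted p = 0.0438). It gave Amigo2, Dsp, Iyd and Tdo2 no adjusted p for this term, so it could not call them. Fitted to the other 22 mice, edgeR gave 0.48 (adjusted p = 0.0651). For the factors floxP and Nestin-Cre themselves 0 of the 10 were called, beside 0.00507% and 0.0456% of 19742 genes, and for any difference between the 4 genotypes 0 of the 10, beside 0.0253%. At an unadjusted p under 0.05, 0 of the 10 passed for floxP, beside 5.5% of all genes, 0 for Nestin-Cre, beside 4.29%, and 1 (Wfs1) for any difference, beside 10.8%.

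C1ql2, a secreted C1q-like protein of mossy fibre synapses, had the lowest log2 difference of the 10 in each of these 3 comparisons. Its lowest, median and highest CPM were 53.0, 85.8 and 113.7 in Egr1cKO mice, 70.3, 111.0 and 123.1 in Egr1fNesCre-, 54.3, 102.2 and 131.2 in Egr1wtNesCre+, and 76.7, 90.7 and 135.2 in wild type. Ranges overlapped in each pairing. Against Egr1fNesCre- the difference was -0.30 ± 0.14 (log2, SE, adjusted p = 0.315), and without the 2 mice -0.17 ± 0.09 (adjusted p = 0.277).

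None of the 5 dentate markers, C1ql2 included, had an unadjusted p under 0.05 with edgeR in any of the 11 comparisons over all mice. Over the other 22 mice Calb1 had a log2 difference of 0.22 for Nestin-Cre alone (edgeR, adjusted p = 0.665) and of -0.30 for the interaction (adjusted p = 0.124), both with an unadjusted p under 0.05. Prox1, the homeobox factor that maintains granule cell identity, had a median of 135.3 CPM in Egr1cKO mice, 137.2 in Egr1fNesCre-, 131.3 in Egr1wtNesCre+ and 128.9 in wild type. Dsp, which encodes the desmosome protein desmoplakin, had medians of 73.4, 78.9, 58.7 and 68.5 CPM in that order of groups. Tdo2, a tryptophan dioxygenase, lay between 4.23 and 9.58 CPM in all 24, and Calb1, the calcium buffer calbindin that CA1 neurons and interneurons also make, between 102.3 and 168.6. Calb1 was the tightest of them in Egr1cKO mice, with 141.0 ± 6.73 CPM (SD, n = 6), against 130.0 ± 20.1 in wild type.

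Iyd, an iodotyrosine deiodinase, averaged 4.85 ± 1.48 CPM in Egr1cKO and 5.65 ± 1.10 in wild-type mice (SD, n = 6 each), and Amigo2, an adhesion molecule, 26.8 ± 3.53 and 29.0 ± 3.92. Fibcd1, a receptor with a fibrinogen-like domain, averaged 175.7 ± 41.4 and 182.4 ± 16.6, and Pou3f1, a POU-domain factor, 86.1 ± 20.5 and 88.4 ± 17.4. Each of these differences was smaller than the SD within a group.

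Sex gave no call either. Between 12 females and 12 males 0 of the 10 were called, beside 0.0701% of 17124 genes, with log2 differences from -0.20 (Dsp) to 0.07 (Fibcd1), and 0 had an unadjusted p under 0.05, beside 5.66% of all genes. For the Egr1cKO effect in females against males 0 of the 10 were called, beside 0.00507% of 19742 genes, and 1 had an unadjusted p under 0.05, beside 6.09%. It was Fibcd1, at 0.54 ± 0.22 (log2, SE, adjusted p = 0.756). It averaged 204.4 ± 24.7 CPM in Egr1cKO females and 147.0 ± 34.6 in Egr1cKO males, and the male mean includes the mouse that stands apart. Fitted to the other 22 mice, the term was 0.29 ± 0.15.

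Other listed genes were counted the same way. Of 74 further listed genes (other markers of CA1, CA3, CA2 and granule cells, and of mossy cells, immature granule cells, subiculum, ventral hippocampus and tissue next to the hippocampus) 63 to 68 were tested in each comparison and edgeR called 0 in any of the 11. DESeq2 called 4 differences of 3 of these genes, none of them a subfield marker. They were Avp for the floxed allele alone, Ttr and Slc4a5 for females against males, and Ttr for the interaction. The 8 other granule cell markers had a median log2 difference of 0.05 between Egr1cKO and the other 18 mice, the 6 other CA1 markers 0.09 and the 6 other CA3 markers 0.01, beside -0.01 over all genes. By unadjusted p under 0.05, 6 of 68 (8.82%) passed there, beside 15.1% of all genes, namely Adora2a, Bok, Cacng5, Fn1, Ntf3 and Sox11. The share lay on either side of that of all genes in the other comparisons. It was 15.2% beside 9.68% for the floxed allele alone and 10.3% beside 4.29% for the factor Nestin-Cre. It was 12.1% beside 16.2% for Egr1cKO against Egr1fNesCre- and 11.8% beside 18.4% for the interaction.

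The balance between subfields was described for each mouse as the mean log2(CPM + 0.1) of the 5 dentate markers minus that of the 3 CA1 markers. It averaged -1.09 ± 0.26 (SD, n = 24) and ran from -1.56 in male Egr1fNesCre+ replicate 3 to -0.62 in male Egr1fNesCre+ replicate 2, so the ends of the range were 2 males of 1 genotype. By genotype it was -1.19 ± 0.34 in Egr1cKO, -0.96 ± 0.18 in Egr1fNesCre-, -1.08 ± 0.29 in Egr1wtNesCre+ and -1.14 ± 0.23 in wild-type mice (SD, n = 6 each). The balance of CA3 and CA2 against CA1 averaged -3.41 ± 0.26 and was -3.54 ± 0.32 in Egr1cKO mice, with the lowest value, -3.93, in female Egr1fNesCre+ replicate 1. The genotype means of each balance differed by less than the SD over 24 mice, and the 4 ranges overlapped. No test was made of these balances. Without the 2 mice the Egr1cKO mean of the dentate balance was -1.12 ± 0.33 (SD, n = 5).

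Mice differed together in several markers. Of the 45 pairs of markers, 22 had a positive correlation of log2(CPM + 0.1) across the 24 mice at an adjusted p of at most 0.05 (permutation of mice, 100000 draws, Benjamini-Hochberg over the 45 relations) and 0 a negative one. These were 8 of the 14 pairs within a subfield and 14 of the 31 between subfields. Without the 2 mice 3 pairs passed, 2 of them positive, so most of the relations rested on those mice. No share of called pairs was computed for gene pairs in general, so these counts cannot show what is particular to the markers.

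Prox1 and Dsp formed the closest pair. Pearson's r was 0.902 and Spearman's rho 0.743 (permutation p = 1e-05, the smallest the draws can give, and 7e-05, adjusted p = 0.00045 and 0.00315). Leaving out the 2 mice farthest from the median of Prox1, which are the same 2 that stand apart, r was 0.826. Within the Egr1wt and the Egr1f animals it was 0.951 and 0.898, and with the 8 group means removed 0.929. Among 19741 genes Dsp ranked number 4 by r with Prox1. The marker Dock10, a regulator of small GTPases listed for granule cells, had an r of 0.936 with Prox1 (rho 0.796, permutation p = 1e-05 for both, adjusted p = 0.000567 and 0.0034 over 680 relations of the 10 markers to 68 listed genes, a family chosen after the data were seen), and 0.872 without the 2 mice.

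Of the CA1 markers, Wfs1 and Pou3f1 were more closely related without the 2 mice. Over 24 mice r was 0.461 and rho 0.399 (permutation p = 0.0234 and 0.0543, adjusted p = 0.0479 and 0.163), and leaving out the 2 mice farthest from the median of Wfs1 gave 0.245. Without the 2 mice that stand apart it was 0.724 (permutation p = 0.00016, adjusted p = 0.0036). Those mice were set aside for low levels of several of the markers, so this p is no independent test. Male Egr1fNesCre+ replicate 3 had high Wfs1 (183.5 CPM) with the second lowest Pou3f1 (58.3 CPM). Within the Egr1wt animals r was 0.722 and within the Egr1f animals 0.165.

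Pou3f1 and Amigo2 formed the 1 pair called negative without the 2 mice. Over 24 mice r was 0.086 and rho -0.363 (permutation p = 0.675 and 0.0817, adjusted p = 0.741 and 0.204). Without the 2 mice r was -0.641 (permutation p = 0.001, adjusted p = 0.015), whereas leaving out the 2 mice farthest from the median of Pou3f1 gave 0.00555. The relation therefore depends on which mice are left out. Amigo2 was lowest in the 2 mice that stand apart, which were set aside for low markers, so the p without them is no independent test. Within the Egr1wt animals r was -0.0172, and within the Egr1f animals 0.3, and each of these values includes a mouse that stands apart.

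None of the 4 pairs of Calb1 with another dentate marker was called. The highest r was with C1ql2, at 0.33 (rho 0.402, permutation p = 0.115 and 0.0534, adjusted p = 0.179 and 0.163), which was 0.312 without the 2 mice, 0.518 within the Egr1wt and 0.0614 within the Egr1f animals. Its r with Prox1 was 0.0129 (rho -0.0965, permutation p = 0.952 and 0.655, adjusted p = 0.965 and 0.894), and -0.133 without the 2 mice farthest from the median of Prox1. Within the Egr1wt animals r was 0.246 and within the Egr1f animals -0.483. Iyd and Amigo2, both listed for CA3 and CA2, had an r of 0.427 (rho -0.0157, permutation p = 0.0454 and 0.944, adjusted p = 0.0852 and 0.988) that became -0.283 without the 2 mice. Within the Egr1wt animals it was 0.413 and within the Egr1f animals 0.567, and each of these values includes a mouse that stands apart. Iyd was closest to C1ql2, with r = 0.761 and rho = 0.659 (permutation p = 6e-05 and 0.00068, adjusted p = 0.00135 and 0.0153), and 0.534 without the 2 mice (permutation p = 0.0105, adjusted p = 0.119). Within the Egr1wt animals r was 0.652 and within the Egr1f animals 0.854.

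**Figure D4:**
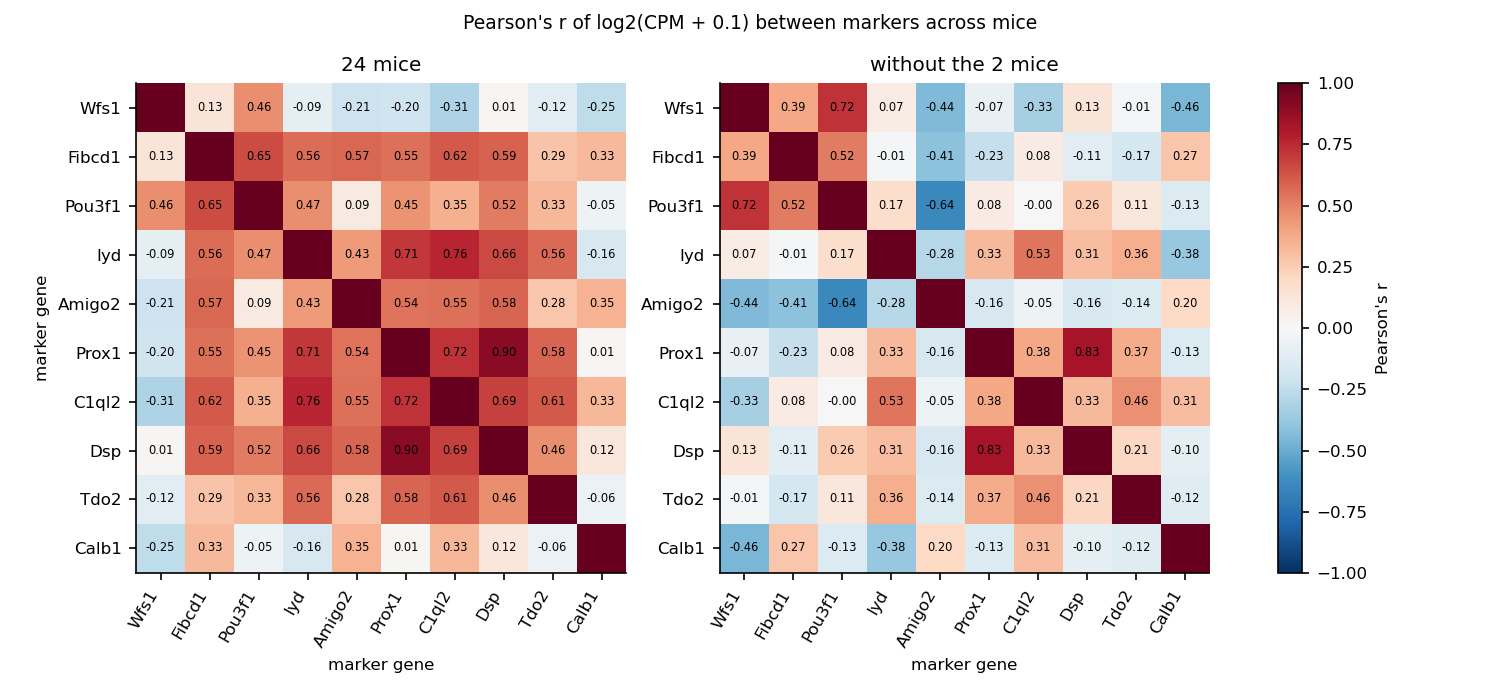
Pearson's r between each pair of the 10 markers over 24 mice (left) and over 22 mice (right), from blue at -1 to red at 1. Most positive values fade without the 2 mice, while Prox1 with Dsp stays high (0.83) and Wfs1 with Pou3f1 is higher (0.72, against 0.46 over 24 mice).

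**Figure D5:**
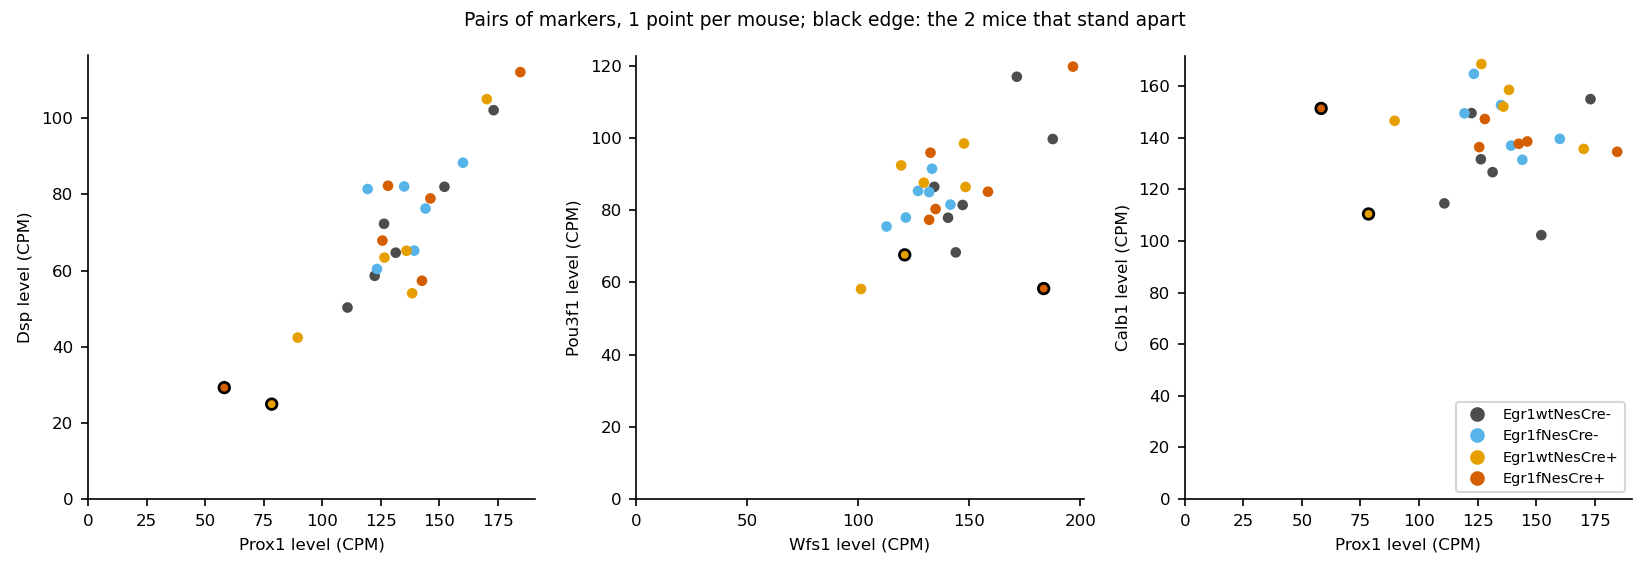
CPM of 1 marker against another (horizontal and vertical axes) with 1 point for each of the 24 mice, for Prox1 and Dsp, Wfs1 and Pou3f1, and Prox1 and Calb1, coloured by genotype and with the 2 mice that stand apart edged in black. Prox1 and Dsp lie along a line. Calb1 runs from 102.3 to 168.6 CPM. On log2 values its r with Prox1 was 0.0129 over 24 mice, 0.246 within the Egr1wt and -0.483 within the Egr1f animals.

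Of the 4 listed neocortical genes, 2 had a called negative correlation with C1ql2 over 24 mice and 1 over 22, with r from -0.884 to -0.0444 over 24 mice. The lowest was that of Cux2, whose r with C1ql2 was -0.884 and rho -0.772 (permutation p = 1e-05 and 2e-05, adjusted p = 0.000567 and 0.00453), and -0.767 without the 2 mice farthest from the median of C1ql2. It was -0.933 within the Egr1wt and -0.843 within the Egr1f animals. Its r of -0.884 was the lowest of the 680 relations of markers to listed genes. Other lists also held called negative relations with C1ql2. Over 24 mice there was 1 each among the other CA1 markers and the immature granule cell, subiculum, thalamus and striatum genes. Over 22 mice there was 1 each for thalamus (lowest r -0.764), other CA1 markers (-0.733) and ventral hippocampus (-0.633). The part of cortical tissue in the relation of Cux2 with C1ql2 was not tested.

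The genes most like each subfield's markers were named by r with the mean standardized log2 CPM of those markers, over 24 mice and 19742 genes. For CA1 they were Plk2, a polo-like kinase (0.93), Cacnb1, a calcium channel subunit (0.86), and Sec14l1 (0.83), and without the 2 mice these were 0.92, 0.87 and 0.77. For the dentate gyrus they were Stxbp6 (0.87), Orai2, a calcium channel (0.86), and Prdm8 (0.86), and without the 2 mice 0.74, 0.64 and 0.67. For CA3 and CA2 they were Ppfia2 (0.87), Il16 (0.87) and Cabp7 (0.86), and without the 2 mice 0.43, 0.40 and 0.21, so these fell most. Il16 is also on the list of other granule cell markers.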

How the data were processed

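RNA was extracted from whole hippocampus and sequenced as non-stranded poly(A) libraries, and reads were trimmed and mapped to GRCm38 with STAR (version 2.7.9 per the labels' processing notes). The authors deposited raw counts per gene for the 24 mice, 1 library per mouse, and no other normalization was applied before deposit. From these counts CPM and RPKM were computed with TMM library sizes and GENCODE exonic lengths, and log2(CPM + 0.1) for correlations and balances.

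Differences were tested with edgeR 4.0.16 (R 4.3.3) after filterByExpr with a minimum count of 10, and called at a fold change of at least 1.2 and adjusted p of at most 0.05, with the fold left out for the factorial and any-difference tests. Sex was a covariate in comparisons of 2 genotypes and in the factorial and any-difference models, and not in the comparison with the 18 other mice. The test was also run on simulated counts with known changes, and no result of that run is used here. DESeq2 1.42.0, other size factors, no filter, covariates, a replicate block and leaving out each mouse were alternatives. Replicates were separate mice. No pair of libraries of the same sex and genotype agreed within counting noise (lowest chi-square per degree of freedom 5.04). Same-numbered mice of different groups did not deviate together (r from -0.146 to 0.227 over 84 pairs), so the numbers do not pair them.

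The named genes were the 10 markers, Egr1, listed genes that were called or moved with a marker, and the 3 genes most like each subfield's markers. The members, the lists and the 2 mice that stand apart were chosen with earlier results of these data known. Intervals cover counting and mouse-to-mouse error as edgeR models it. For 1 listed gene no values are reported here.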

Additional observations from a re-analysis of the deposited data

Results flagged for a closer look

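In 2 cases a single value stood far from the rest of their group of 6 mice by Dixon's ratio, out of 48 groups tested, of which chance alone flags about 1 in 20. Fibcd1 in Egr1wtNesCre- mice was 149.7 CPM in female replicate 3, below 184.0 to 195.8 CPM in the other 5. Amigo2 in Egr1wtNesCre+ mice was 15.05 CPM in female replicate 1, below 26.5 to 32.3 CPM in the other 5, and that mouse is 1 of the 2 in which several markers were low.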

How the results depend on the processing

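The count of 0 called markers was kept in each of the 11 comparisons with other size factors, with or without the covariates, in the shared fit and, in the 10 comparisons that hold them, without the 2 mice that stand apart, an alternative added after the data were seen. It moved with the filter: with none, 2 markers were called for Egr1cKO against Egr1fNesCre- (C1ql2 and Wfs1, beside 2.36% of all genes), 2 against Egr1wtNesCre+ (Wfs1 and Dsp, 1.55%), 1 for Nestin-Cre alone (Dsp, 0.456%), 1 for the floxed allele alone (Wfs1, 0.475%), 2 for any genotype difference (Wfs1 and Dsp, 2.98%), 1 for the interaction (Wfs1, 3.2%) and 1 for the Egr1cKO effect by sex (Fibcd1, 0.399%). The cause was not tested. For the interaction DESeq2 called 1 marker, Wfs1, beside 0.916% of all genes. That share is over all genes with a p, including those without an adjusted p, which could not be called. Amigo2, Dsp, Iyd and Tdo2 were among the latter. Leaving out 1 mouse at a time in edgeR gave 0 to 1 for the interaction, the 1 being Wfs1 without male Egr1wtNesCre+ replicate 2 (adjusted p = 0.0209). In the other 10 comparisons leaving out 1 mouse gave 0 to 0.

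With the replicate number as a block 0 of the 10 markers were called in each comparison, and calls over all genes were 1, 7, 1, 0, 0, 11, 4, 1, 6, 1 and 0 in the order Egr1cKO against the 18, against Egr1fNesCre-, against Egr1wtNesCre+, Nestin-Cre alone, floxed allele alone, sex, any genotype, floxP, Nestin-Cre, interaction and Egr1cKO by sex. Without the block they were 1, 4, 1, 0, 0, 12, 5, 1, 9, 1 and 1. The mice share only a number, and 8 of 24 correlated best with their own number. In the same order DESeq2 called 42, 79, 30, 20, 2, 18, 38, 9, 18, 335 and 5 genes, and no filter 7, 808, 529, 156, 163, 13, 1091, 97, 191, 1173 and 146. Without the 2 mice the first comparison called 218 genes. With sex as a covariate it called 3, and the shared fit called 6 against Egr1fNesCre- and 3 against Egr1wtNesCre+.

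Of the 45 pairs of markers, 22 were called, and leaving out 1 mouse gave 5 to 23. It was 11 without female Egr1wtNesCre+ replicate 1, 5 without male Egr1fNesCre+ replicate 3 and 3 without both. The median dentate balance of -1.11 became -1.41 without Calb1 and 0.175 as a ratio of summed CPM, which weights the genes by level. Of 100 differences of single markers 56 changed sign under some alternative, each of at most 0.18 on the log2 scale.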
